A study of Mus musculus with 6 samples.

Results

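The genes described here encode the subunits of the mitochondrial respiratory chain and of the ATP synthase. They were measured by bulk RNA-seq of infarct tissue in 2 groups of 3 male mice about 12 weeks old, IRF3-/- mice (KO) and C57BL/6 wild-type mice (WT), on day 4 after the left anterior descending coronary artery was tied off for good. The sources used here give neither the strain of the KO mice nor the deleted part of Irf3. IRF3 turns on type I interferon genes when nucleic acid is sensed, and all 6 mice had an infarct, so the comparison is between genotypes in injured hearts. Members were chosen by gene symbol alone (names that start with Nduf and a subunit letter, Sdha to Sdhd, Uqcr, Cox4 to Cox8 and Atp5, without assembly factors, Cox7a2l and names marked as pseudogenes). This gave 83 of the 12969 genes in the table, 37 for complex I, 4 for complex II, 8 for complex III, 16 for complex IV and 18 for complex V.

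Complexes I and II pass electrons from NADH and succinate to coenzyme Q, complex III passes them on to cytochrome c, and complex IV passes them to oxygen. Complexes I, III and IV pump protons across the inner mitochondrial membrane, and complex V, the ATP synthase, uses the returning protons to make ATP. Cardiomyocytes are packed with mitochondria and rely on this chain for contraction, so a heart sample holds much of its transcripts, and an infarct loses cardiomyocytes as inflammatory cells and fibroblasts come in. Some subunits of complex IV exist in a form made in heart and skeletal muscle and in a form made in most tissues.

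The libraries held 14.8, 18.1 and 61.9 M reads in genes in KO replicates 1 to 3 and 18.9, 20.8 and 15.7 M in WT replicates 1 to 3. Irf3 itself stood at 7.4, 8.74 and 7.68 RPKM (reads corrected for the length of the gene and the depth of the library) in the KO libraries, against 13.76, 13.87 and 11.56 RPKM in the WT libraries. It was lower in every KO library but not absent, and the table cannot show which part of the gene the reads came from (log2 fold change -0.65 ± 0.18 SE, limma adjusted p = 0.344). KO replicate 2 stood apart from the other 5 libraries. Its mean correlation with them was 0.907, where the other libraries had 0.941 to 0.966. Lars2, a locus that collects ribosomal RNA reads, took 2.48% of its reads, against 0.132% to 0.701% elsewhere. Medians of gene groups are given with and without it. Cardiomyocyte markers were abundant in every library, and markers of macrophages and fibroblasts were present beside them.

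The respiratory chain genes had higher values in KO infarcts as a group, but none of the 83 passed the test across all genes against the spread between mice. All 83 passed the filter on low values, which asks for a mean of 1 RPKM or more, and entered the limma fit on log2(RPKM + 1). The count with an adjusted p under 0.05 was 0, where 0.503% of all 12913 tested genes were called (65 genes, of which 19 were higher in KO, 0.147% of those tested, and 46 lower, 0.356%). Cox6b2 had the smallest adjusted p, at 0.11 in limma. A log2 fold change above 0 was found for 81 of the 83 members, which is 97.6%, while 40.7% of all tested genes were above 0. The median log2 fold change of the members was 0.59, and that of all tested genes was -0.09. At an unadjusted limma p under 0.05, 11 members were higher in KO (13.3%, against 2.45% of all genes) and 1 was lower (5.96% of all genes were). These 12 became 4 without KO replicate 2, 2 without WT replicate 1 or without WT replicate 2, and 8 without KO replicate 3. They became 30 without WT replicate 3 and 38 without KO replicate 1. Without KO replicate 2, 1006 of all 12913 tested genes had such a p in either direction, a larger share than the members' 4 of 83. Counts over all genes are not given here for the other fits.

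The libraries at the ends of the range were KO replicate 2 and WT replicate 1. Relative to the WT mean, the median member stood at 0.24, 1.07 and 0.38 on the log2 scale in KO replicates 1 to 3, and at -0.29, -0.07 and 0.35 in WT replicates 1 to 3. KO replicate 2 was the highest of the 6 libraries for 75 of the 83 members, and WT replicate 1 was the lowest for 71. WT replicate 3 overlapped with the knockouts: for 63 members it was at or above the lowest KO library. Summed over the members, the level was 13540, 27390 and 15160 RPKM in KO replicates 1 to 3, against 9000, 10790 and 14810 RPKM in WT replicates 1 to 3. These sums were 1.95%, 3.53% and 2.15% of the reads in KO replicates and 1.24%, 1.58% and 2.18% in WT replicates. Without KO replicate 2 the median log2 fold change was 0.30 (0.01 for all genes), with 80 members above 0, where 52.1% of all genes were. Without WT replicate 1 it was 0.45, with 75 members above 0. In bulk tissue, fewer cells of a type and less RNA per cell cannot be told apart.

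**Figure D1:**
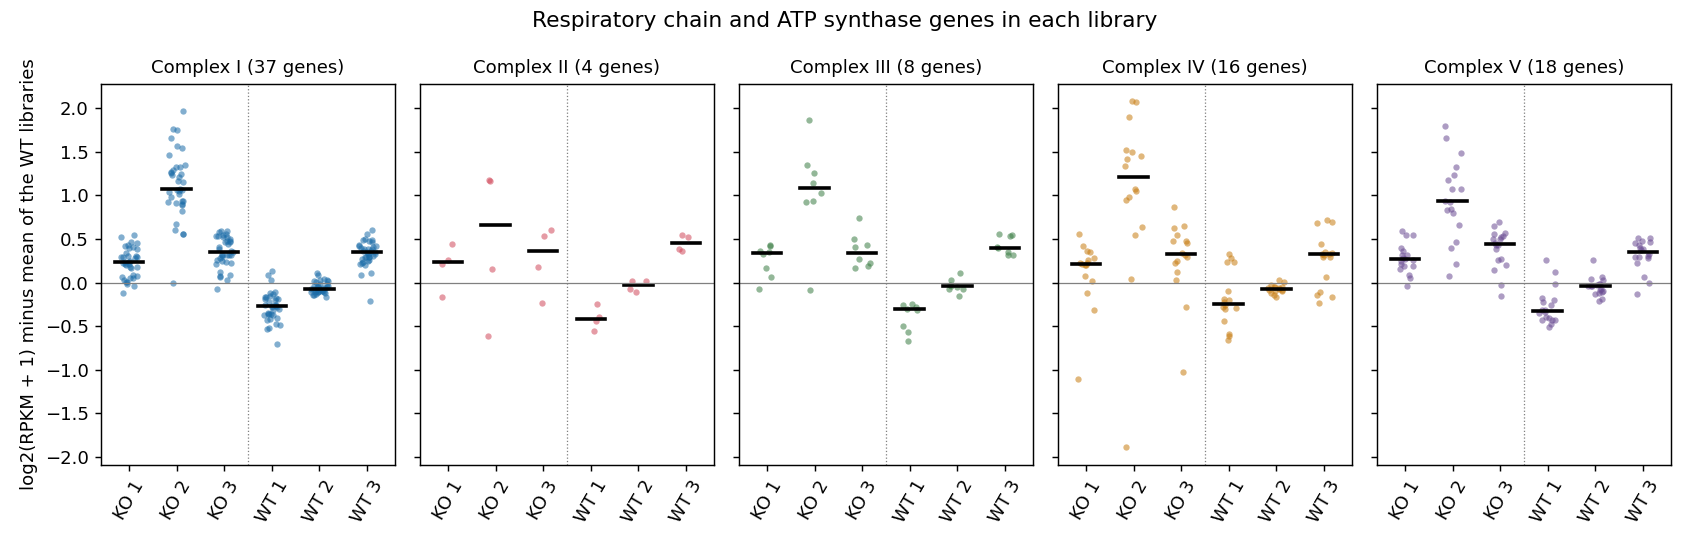
Level of each of the 83 genes in each library, as log2(RPKM + 1) minus the mean of the 3 WT libraries, by complex. Points are genes, black bars are medians, and KO libraries stand left of WT libraries. KO replicate 2 is the highest library for 75 genes and WT replicate 1 the lowest for 71.

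In 16 members all 3 KO libraries lay above all 3 WT libraries, which is 19.3% of the members, against 6.61% of all tested genes. They were Ndufb4, Ndufb9, Ndufb10, Ndufb11, Ndufc2, Ndufa12, Ndufs8 and Ndufv2 of complex I, Sdhc of complex II, Uqcrh of complex III, Cox4i2 of complex IV, and Atp5c1, Atp5k, Atp5o, Atp5l and Atp5l2 of complex V. The opposite order was found for 1 member, Cox6b2, where the share of all genes was 11.8%. The same count of 16 resulted with KO replicates 1 and 3 alone set above all WT libraries, where 10.9% of all genes had that order. With all libraries, some smaller lists of related genes, described below, had shares near the members' 19.3%. These were 20% and 18.2% for assembly factors of complexes II to V and of complex I, and 17.6% for electron carriers and coenzyme Q synthesis. Subunits outside the name rule had 16.7%. Inner membrane carriers had 9.09%, regulators of mitochondrial biogenesis 5.88% and citric acid cycle enzymes 0%.

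Promoter sequences were read for members that show how the genes differed. Cox7a1 stands for a muscle form and Cox6a1 for a general form, but of different complex IV subunits, so they are not a pair. Atp5k and Sdha stand for the highest and lowest log2 fold change in complexes V and II, and Cox6b2 for the member with the smallest p. Each line gives the 250 bases before the RefSeq start of the gene on GRCm38.p6, 5′ to 3′ on the gene's strand. Capitals mark a match to GCGCANGCG, the motif of NRF1, or CCGGAAG, the motif of GABPA, on either strand, both factors being known regulators of respiratory chain genes. The windows are chr7:30183921-30184170 (plus strand) for Cox7a1, chr5:115348959-115349208 (minus strand) for Cox6a1, chr5:108434400-108434649 (minus strand) for Atp5k, chr13:74350241-74350490 (minus strand) for Sdha and chr7:4753095-4753344 (minus strand) for Cox6b2.
Cox7a1: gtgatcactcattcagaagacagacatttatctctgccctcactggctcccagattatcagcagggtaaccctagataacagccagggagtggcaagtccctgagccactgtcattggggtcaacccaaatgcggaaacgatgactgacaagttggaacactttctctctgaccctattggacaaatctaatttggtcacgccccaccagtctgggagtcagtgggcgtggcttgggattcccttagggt
Cox6a1: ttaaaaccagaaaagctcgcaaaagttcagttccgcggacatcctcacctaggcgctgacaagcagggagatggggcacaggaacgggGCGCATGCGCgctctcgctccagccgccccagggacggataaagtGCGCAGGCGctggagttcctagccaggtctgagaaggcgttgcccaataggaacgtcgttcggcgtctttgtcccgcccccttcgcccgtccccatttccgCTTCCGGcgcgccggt
Atp5k: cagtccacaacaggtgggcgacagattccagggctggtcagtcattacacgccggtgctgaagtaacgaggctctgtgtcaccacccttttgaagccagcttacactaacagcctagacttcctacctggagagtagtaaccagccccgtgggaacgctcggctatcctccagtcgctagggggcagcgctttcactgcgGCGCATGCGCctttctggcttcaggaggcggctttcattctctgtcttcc
Sdha: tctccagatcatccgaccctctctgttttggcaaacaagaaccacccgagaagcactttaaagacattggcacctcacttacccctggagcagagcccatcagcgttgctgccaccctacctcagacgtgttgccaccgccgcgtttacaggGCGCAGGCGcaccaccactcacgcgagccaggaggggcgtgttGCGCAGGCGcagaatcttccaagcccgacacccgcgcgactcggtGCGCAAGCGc
Cox6b2: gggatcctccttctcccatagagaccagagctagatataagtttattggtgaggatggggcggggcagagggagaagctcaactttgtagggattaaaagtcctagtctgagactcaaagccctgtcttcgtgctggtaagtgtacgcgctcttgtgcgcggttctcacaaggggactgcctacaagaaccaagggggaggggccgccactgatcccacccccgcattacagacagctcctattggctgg
The bases before Sdha held 3 NRF1 stretches, those before Cox6a1 held 2 NRF1 stretches and 1 GABPA match, and those before Atp5k held 1 NRF1 stretch, where overlapping matches on both strands count as 1 stretch. None of the letters searched was found in the bases before Cox7a1 and Cox6b2.

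A RefSeq window of 300 bases (250 before the start and 50 after it) was found for 67 of the 83 members and for 27025 genes in all. These are more than the 12969 genes measured, so all windows include genes outside the measured ones. No comparison with measured genes alone was made. The NRF1 motif was in 28.4% of the members' windows and 6.47% of all windows. GABPA's motif was in 22.4% and 9.12%. The YY1 motif AAGATGGC was in 14.9% of members' windows and 2.88% of all, and AAGGTCA, the motif of the oestrogen-related receptors that drive mitochondrial genes in heart, was in 11.9% and 4.66%. CTATTTATA, a motif of the muscle factor MEF2, was in 0% of members' windows and 0.426% of all windows. The windows of Cox7a1 and Cox7a2, the muscle and general forms of the same subunit, both held none of these motifs. That of Cox8a held 2 GABPA matches, and that of its muscle form Cox8b held none of the motifs. Both strands were searched, none of the motifs contains another, and a match is a description of the sequence and not a site of binding.

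Complex I takes electrons from NADH. All 37 of its genes had a log2 fold change above 0, with a median of 0.58, and of 0.28 without KO replicate 2. Ndufv1, which carries the NADH-binding site, was at 133.8, 310.2 and 146.1 RPKM in KO replicates 1 to 3, against 73.42, 103.4 and 156.4 RPKM in WT replicates 1 to 3. The groups overlapped, since WT replicate 3 was above KO replicates 1 and 3 (log2 fold change 0.78 ± 0.40 SE, limma adjusted p = 0.556). Ndufv2, its partner in the NADH-oxidising arm, was at 157, 226.2 and 155.5 RPKM in KO and at 83, 104.5 and 141.5 RPKM in WT. Here no WT library reached a KO library (0.72 ± 0.28, limma adjusted p = 0.556). Ndufs8, an iron-sulphur subunit near the coenzyme Q site, likewise had separate groups, at 129.4, 232.1 and 144.8 RPKM in KO and 84.1, 91.56 and 114.3 RPKM in WT (0.76 ± 0.28, limma adjusted p = 0.556).

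Ndufs1, the largest iron-sulphur subunit of complex I, had the smallest log2 fold change of the complex. It was at 73.65, 64.68 and 66.44 RPKM in KO and at 39.61, 70.14 and 98.96 RPKM in WT. The WT libraries spanned a wider range than the KO libraries and enclosed them (0.07 ± 0.32, limma adjusted p = 0.924). Ndufs7, an iron-sulphur subunit at the coenzyme Q site, averaged 130 ± 83.7 RPKM in KO and 73.2 ± 22.4 RPKM in WT (SD, n = 3 each) and did not pass the test (0.67 ± 0.43, limma adjusted p = 0.556). Ndufb10, an accessory subunit of the membrane arm, had the highest log2 fold change of the complex, 0.95 ± 0.38 (limma adjusted p = 0.556). Its levels were 166.3, 390.2 and 173.3 RPKM in KO and 89.4, 111.4 and 155.5 RPKM in WT, with no overlap.

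Levels within complex I differed widely. Ndufa4 had the highest mean, 741 ± 265 RPKM in KO and 513 ± 135 RPKM in WT (0.50 ± 0.36, limma adjusted p = 0.566), and is now regarded as a subunit of complex IV. Ndufb2 had the lowest, 2 ± 0.51 RPKM in KO and 1.39 ± 0.52 RPKM in WT. Ndufa4l2, the form of Ndufa4 that low oxygen induces, was at 21.19, 44.17 and 29.41 RPKM in KO and 24.06, 23.2 and 18.69 RPKM in WT. Its groups overlapped, and WT replicate 3, the WT library richest in the other members, had its lowest value (0.45 ± 0.28, limma adjusted p = 0.556).

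Complex II is the only complex of the chain with no subunit encoded in mitochondrial DNA, and it also works in the citric acid cycle. Its 4 genes had log2 fold changes of both signs, with a median of 0.42, which was 0.30 without KO replicate 2 and 0.21 without WT replicate 1. Sdha, the flavoprotein that oxidises succinate, was at 140.92, 103.05 and 133.87 RPKM in KO replicates 1 to 3, against 107.24, 160.16 and 230.86 RPKM in WT replicates 1 to 3. KO replicate 2 had the lowest value and WT replicate 3 the highest, and the groups overlapped (log2 fold change -0.34 ± 0.31, limma adjusted p = 0.615). Sdhb, the iron-sulphur subunit that takes electrons from Sdha, was at 140.1, 265.2 and 169.5 RPKM in KO and 85.69, 110.7 and 167.9 RPKM in WT. Here KO replicate 2 was highest, and WT replicate 3 lay between the KO libraries (0.66 ± 0.34, limma adjusted p = 0.556).

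The membrane anchors Sdhc and Sdhd differed too. Sdhc was at 79.03, 131 and 88.75 RPKM in KO and 48.65, 53.6 and 75.07 RPKM in WT, with no overlap (0.73 ± 0.27, limma adjusted p = 0.556). Sdhd was at 200.8, 192.9 and 197.1 RPKM in KO and 131.6, 175.9 and 226.2 RPKM in WT (0.18 ± 0.26, limma adjusted p = 0.74). The KO libraries were close together inside the range of the WT libraries. The ratio of Sdhb to Sdha within a library, chosen after the values were seen and so not tested, was 0.994, 2.57 and 1.27 in KO replicates 1 to 3, against 0.799, 0.691 and 0.727 in WT replicates 1 to 3. All KO ratios lay above all WT ratios, and KO replicate 2 was farthest from the rest.

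**Figure D2:**
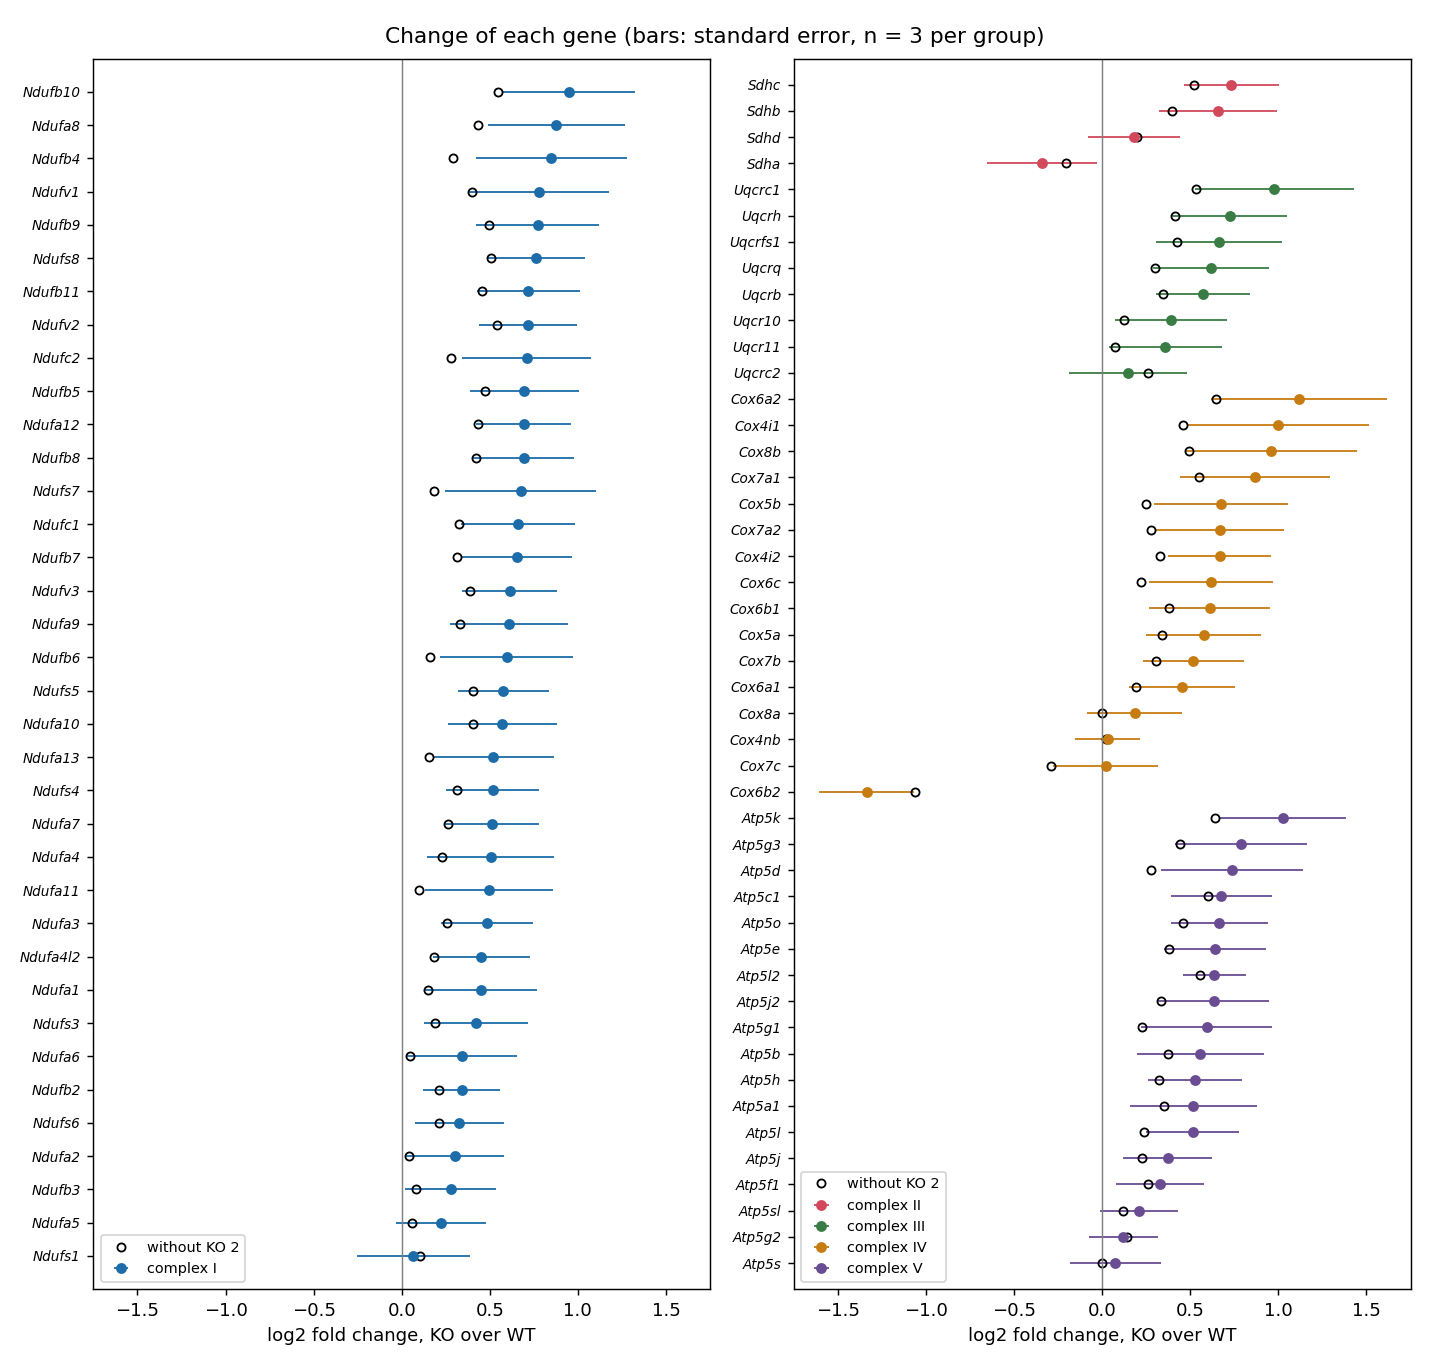
Log2 fold change of KO over WT for 82 of the 83 genes (filled points) with its standard error, by complex, on the log2(RPKM + 1) scale, and open circles for the value without KO replicate 2. Of the 82 filled points 80 lie above 0, and Cox6b2 at -1.34 and Sdha at -0.34 lie below it.

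Complex III had 8 genes, all with a log2 fold change above 0 and a median of 0.59 (0.32 without KO replicate 2). Uqcrc1, a core protein of the matrix side, was at 342.4, 993.2 and 455.2 RPKM in KO and 193.2, 265.5 and 393.2 RPKM in WT. KO replicate 2 was far above the other 5 libraries, and WT replicate 3 was above KO replicate 1 (0.98 ± 0.45, limma adjusted p = 0.556). Uqcrc2, the other core protein, was at 211.6, 156.9 and 187.4 RPKM in KO and 104.2, 179.4 and 246 RPKM in WT (0.14 ± 0.33, limma adjusted p = 0.842). KO replicate 2 was the lowest KO library for this subunit and the highest for its partner. The ratio of Uqcrc1 to Uqcrc2, also chosen after the values were seen, was 1.62, 6.33 and 2.43 in KO replicates 1 to 3 and 1.85, 1.48 and 1.6 in WT replicates 1 to 3. The groups overlapped, and KO replicate 2 was far above the rest.

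Uqcrfs1, the Rieske iron-sulphur protein that hands electrons to cytochrome c1, was at 259.2, 444.9 and 284.3 RPKM in KO and 135.3, 205.4 and 295 RPKM in WT (0.66 ± 0.36, limma adjusted p = 0.556). Uqcrh, the hinge protein, was the complex III gene with separate groups, at 224.8, 426.6 and 222.4 RPKM in KO and 137.2, 163.8 and 208.8 RPKM in WT (0.72 ± 0.33, limma adjusted p = 0.556). Uqcrb, which binds coenzyme Q and had the lowest mean of the complex, averaged 91.2 ± 26.8 RPKM in KO and 60.3 ± 12.5 RPKM in WT (0.57 ± 0.27, limma adjusted p = 0.556). Cyc1, the gene of cytochrome c1, is a complex III subunit outside the name rule. It was at 335.4, 1076 and 443.4 RPKM in KO and 198.8, 262 and 393.1 RPKM in WT (0.99 ± 0.47, limma adjusted p = 0.556), so KO replicate 2 was again the highest library and WT replicate 3 was above KO replicate 1.

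Complex IV held both ends of the range. The median log2 fold change of its 16 genes was 0.61 (0.29 without KO replicate 2), with 15 above 0. Cox4i1, which caps the catalytic core and is the subunit through which ATP regulates the enzyme, had the highest level of all members, at 1005, 3548 and 1316 RPKM in KO and 737.4, 749.9 and 1065 RPKM in WT. KO replicate 2 was the highest library by far, and WT replicate 3 was above KO replicate 1 (0.997 ± 0.52, limma adjusted p = 0.556). Cox5a and Cox5b, which surround the same core, averaged 293 ± 90.6 and 239 ± 133 RPKM in KO, against 196 ± 59.3 and 138 ± 31 RPKM in WT (0.58 ± 0.33 and 0.67 ± 0.38, limma adjusted p = 0.556 each). Cox4i2, the form of Cox4 known from lung and from low oxygen, was at 7.81, 18.38 and 9.49 RPKM in KO and 6.18, 6.78 and 7.02 RPKM in WT. All KO libraries were above all WT libraries (0.67 ± 0.29, limma adjusted p = 0.556).

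With all libraries, the muscle forms of complex IV subunits had larger log2 fold changes than the general forms, but the ratio of each pair overlapped between genotypes. Without WT replicate 1 this order was lost for the muscle form Cox7a1 and the general form Cox7a2, at 0.54 and 0.57. Cox6a2, the muscle form, was at 455.8, 1422 and 618.8 RPKM in KO and 225.6, 318.2 and 544.7 RPKM in WT (1.12 ± 0.50, limma adjusted p = 0.556). Cox6a1, the general form, was at 148.7, 279.2 and 175.5 RPKM in KO and 177.4, 132.3 and 120.3 RPKM in WT (0.45 ± 0.30, limma adjusted p = 0.556). WT replicate 3 was the highest WT library for the muscle form and the lowest for the general form, and WT replicate 1 the reverse. The ratio of Cox6a2 to Cox6a1 was 3.07, 5.09 and 3.53 in KO replicates 1 to 3, against 1.27, 2.41 and 4.53 in WT replicates 1 to 3. The groups overlapped (exact permutation test, two-sided, p = 0.4, 0.64 adjusted over the 8 paralogue pairs, the smallest p possible with 3 against 3 being 0.1).

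The other muscle pairs had the same order among WT libraries. Cox7a1 over Cox7a2 was 1.68, 1.38 and 1.54 in KO replicates 1 to 3 and 0.963, 1.36 and 1.79 in WT replicates 1 to 3 (exact permutation p = 0.6). Cox8b over Cox8a was 1.74, 3.18 and 1.79 in KO and 0.693, 1.25 and 2.28 in WT (exact permutation p = 0.3). In both, WT replicate 1 had the lowest ratio of the 6 libraries, and the groups overlapped. Without WT replicate 1, the mean log2 ratio in KO minus that in WT fell from 0.20 to -0.03 for Cox7a1 over Cox7a2. It fell from 0.78 to 0.35 for Cox8b over Cox8a and from 0.66 to 0.20 for Cox6a2 over Cox6a1. Cox7a1 averaged 522 ± 214 RPKM in KO and 294 ± 141 RPKM in WT, and Cox8b averaged 584 ± 358 RPKM in KO and 287 ± 133 RPKM in WT (0.87 ± 0.43 and 0.96 ± 0.49, limma adjusted p = 0.556 each). Cox7a2 averaged 352 ± 180 RPKM in KO and 207 ± 38.4 RPKM in WT, and Cox8a averaged 247 ± 59.7 RPKM in KO and 215 ± 32.8 RPKM in WT (0.67 ± 0.37 and 0.18 ± 0.27, limma adjusted p = 0.556 and 0.743).

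**Figure D3:**
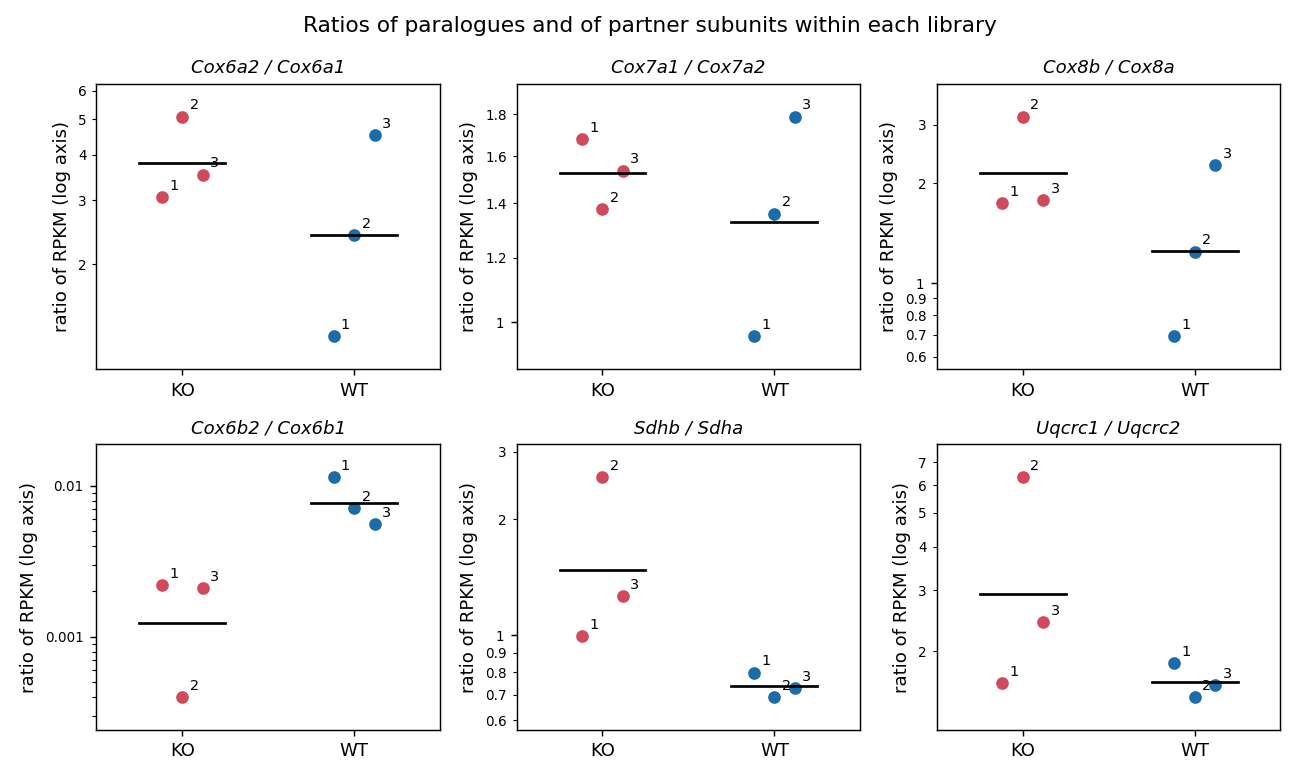
Ratio of RPKM of 6 gene pairs within each library, on log axes, with KO left of WT, numbers for replicates and bars for the mean of the log ratios. The 3 muscle-over-general pairs overlap between genotypes, and Cox6b2 over Cox6b1 and Sdhb over Sdha do not.

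Cox6b2 had the lowest log2 fold change of all members. It encodes the form of subunit 6b made mainly in testis and was at 1.59, 0.5 and 1.73 RPKM in KO replicates 1 to 3, against 5.77, 4.02 and 4.04 RPKM in WT replicates 1 to 3. All KO libraries were below all WT libraries, with KO replicate 2 the lowest. At these low levels the values of KO replicates 1 and 2 rest on few reads, and so do the ratios below. The log2 fold change was -1.34 ± 0.27 SE and missed the threshold (limma adjusted p = 0.11). It passed with quantile normalization (limma adjusted p = 0.043) and with limma's library weights (adjusted p = 0.000328), where 2960 of all 12913 genes passed. It missed the threshold with median-of-ratios scaling (limma adjusted p = 0.077) and with limma's robust variances (adjusted p = 0.122). The same held with 0.1 RPKM added in place of 1 (limma adjusted p = 0.23). Leaving out 1 library at a time, it missed each time (limma adjusted p from 0.057 to 0.39). The general form Cox6b1 was at 721.5, 1244 and 822.6 RPKM in KO and 506.1, 565.1 and 724.6 RPKM in WT (0.61 ± 0.34, limma adjusted p = 0.556), so Cox6b2 was a small part of the subunit's transcripts in every library. The ratio of Cox6b2 to Cox6b1 was lower in all KO libraries, 0.0022, 0.0004 and 0.0021, than in all WT libraries, 0.0114, 0.00711 and 0.00558 (exact permutation p = 0.1, 0.64 adjusted over the 8 pairs).

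Complex V had 18 genes, all with a log2 fold change above 0 and a median of 0.57 (0.33 without KO replicate 2). Atp5b, the catalytic beta subunit, was at 657.9, 1005 and 713 RPKM in KO and 372.4, 541.1 and 733.2 RPKM in WT (0.56 ± 0.36, limma adjusted p = 0.556). Atp5a1, the alpha subunit, averaged 803 ± 170 RPKM in KO and 576 ± 200 RPKM in WT (0.52 ± 0.36, limma adjusted p = 0.563). In both, WT replicate 3 was above KO replicates 1 and 3. Atp5c1, the gamma subunit that turns inside the catalytic head, was at 262.4, 318.5 and 282.4 RPKM in KO and 132.3, 176.5 and 246.4 RPKM in WT. Its groups did not overlap, and KO replicate 2 was less far from the other KO libraries than for most members (0.68 ± 0.29, limma adjusted p = 0.556).

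Atp5k, the e subunit that helps ATP synthases pair up in the membrane, had the highest log2 fold change of the complex, 1.03 ± 0.36 (limma adjusted p = 0.523). It was at 195.5, 454.3 and 210.5 RPKM in KO and 111.5, 122.6 and 160.4 RPKM in WT, so all KO libraries were above all WT libraries. Its promoter, printed above, holds 1 NRF1 stretch. Atp5o, the subunit of the stalk that holds the head in place, was at 103.4, 166.1 and 113.6 RPKM in KO and 62.8, 74.45 and 103.2 RPKM in WT, also without overlap, though WT replicate 3 and KO replicate 1 were nearly equal (0.67 ± 0.28, limma adjusted p = 0.556).

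The c subunit, which forms the rotor ring, has 3 genes for the same mature protein. Atp5g3 was the most abundant, at 301.2, 659.9 and 338.7 RPKM in KO and 178.7, 229 and 317.6 RPKM in WT (0.79 ± 0.37, limma adjusted p = 0.556). Atp5g1 averaged 39.3 ± 19.5 RPKM in KO and 24.7 ± 8.64 RPKM in WT (0.59 ± 0.37, limma adjusted p = 0.556), and Atp5g2 averaged 1.81 ± 0.35 RPKM in KO and 1.6 ± 0.47 RPKM in WT (0.12 ± 0.20, limma adjusted p = 0.772). The ratios of Atp5g1 and of Atp5g3 to Atp5g2 overlapped between genotypes (exact permutation p = 0.5 and 0.4), as did Cox4i2 over Cox4i1 (p = 0.4, exact) and Ndufa4l2 over Ndufa4 (p = 1, exact).

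Several members are uncertain as measures of a single gene. Atp5l2, at 1.38, 1.84 and 1.4 RPKM in KO and 0.95, 0.49 and 0.49 RPKM in WT, had the lowest mean of all members and is annotated as a pseudogene in GENCODE M21. Its groups did not overlap (0.64 ± 0.18, limma adjusted p = 0.361). Of its 50-base words, 73.4% also occur in transcripts of other genes, among them Atp5l, for which the share was 84.9%. At least 25% of words were shared for 15 members, which also include Atp5h, Uqcrb, Ndufs3, Atp5f1, Ndufb4, Ndufb6, Atp5o, Cox5a, Ndufs5, Ndufa13, Cox7c, Ndufa12 and Cox5b, and 0% for 37. The sources used here do not say how reads that fit several places were counted, and for these genes they may have been split or dropped. The name rule also brought in Cox4nb, which is Emc8 of an endoplasmic reticulum complex and the neighbour of Cox4i1, Atp5s, a coupling factor, and Atp5sl, which is Dmac2, an assembly factor of complex I. Their log2 fold changes were 0.03, 0.07 and 0.21, none of which passed (limma adjusted p = 0.94, 0.896 and 0.658).

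Cardiomyocyte markers had their lowest and highest library in common with the respiratory chain genes. All 25 markers were in the table, 24 had a log2 fold change above 0 and 0 were called, with a median of 0.67. This median was 0.45 without KO replicate 2 and 0.26, with 20 markers above 0, without WT replicate 1. Relative to the WT mean their median was 0.33, 1.09 and 0.55 in KO replicates 1 to 3, against -0.80, 0.18 and 0.70 in WT replicates 1 to 3. Their summed level was 20860, 34980 and 24240 RPKM in KO and 9683, 18670 and 26730 RPKM in WT. The ratio of the members' sum to the markers' sum was 0.649, 0.783 and 0.625 in KO replicates 1 to 3, against 0.93, 0.578 and 0.554 in WT replicates 1 to 3. The genotypes overlapped in this ratio, through WT replicate 1, the library with the fewest cardiomyocyte transcripts and the highest ratio. The mean difference was 0.03 on the log2 scale. Libraries were then left out after the values had been seen, and the difference was 0.27 without WT replicate 1, where all KO ratios lay above both other WT ratios. It was -0.07 without KO replicate 2 or WT replicate 2, -0.10 without WT replicate 3, and 0.07 and 0.10 without KO replicates 1 and 3.

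**Figure D4:**
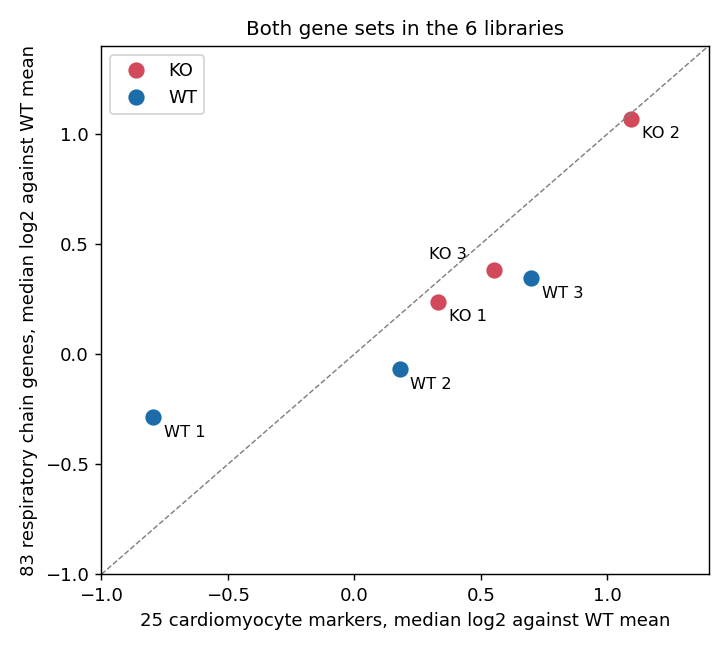
Median of the 83 respiratory chain genes (vertical) against median of 25 cardiomyocyte markers (horizontal) in each library, both as log2 relative to the WT mean, with a dashed line where both are equal. WT replicate 1 is lowest on both axes and KO replicate 2 highest on both, at 1.07 and 1.09.

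Other cell types differed between libraries as well. The 24 measured monocyte and macrophage markers of a list of 25 had medians of 0.18, -1.07 and -0.08 in KO replicates 1 to 3, against 0.56, -0.20 and -0.30 in WT replicates 1 to 3, relative to the WT mean. Their summed level ranged from 4561 to 10230 RPKM in KO and from 4969 to 10660 RPKM in WT. With all libraries 18 of the 24 had a log2 fold change below 0 and the median was -0.33, but without KO replicate 2 the median was 0.11 with 13 of 24 above 0, and without WT replicate 1 it was -0.02. KO replicate 2, highest for the respiratory chain, was lowest for these markers. Of the 15 fibroblast markers 14 were below 0 with and without KO replicate 2. Their median log2 fold change was -0.50, or -0.30 without that library, and their summed level was 4139 to 5651 RPKM in KO against 6477 to 7388 RPKM in WT.

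All 9 mesothelial markers, from the sheet that covers the heart, had a log2 fold change below 0. Their median was -1.02, or -0.71 without KO replicate 2 and -0.67 without WT replicate 1, and their summed level was 33.4 to 84.1 RPKM in KO and 61.4 to 215 RPKM in WT. The 5 red cell genes measured had a median of 1.25, or 0.92 without KO replicate 2. Their summed level was 899.5, 492.3 and 130.4 RPKM in KO replicates 1 to 3 and 385.9, 89.12 and 169.5 RPKM in WT replicates 1 to 3. The genotypes overlapped in this sum, with KO replicate 3 below WT replicates 1 and 3. Endothelial markers had -0.13 (-0.0041 without KO replicate 2 and -0.06 without WT replicate 1), and smooth muscle and pericyte markers -0.18 (-0.10 without KO replicate 2). Neutrophil markers had -0.14 with all libraries, 0.09 without KO replicate 2 and 0.32 without WT replicate 1. Skeletal muscle, lymphocyte and adipocyte markers had -0.71, -0.21 and 0.52, over 5, 2 and 2 measured genes (-0.54, 0.00051 and 0.41 without KO replicate 2). None of these markers was called, and none was at 0 in any library. The part of tissue composition in the respiratory chain result was not tested.

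The rest of the mitochondrial machinery was read in lists of related genes, with 0 genes called in each. For citric acid cycle enzymes the median log2 fold change was 0.42, with 14 of 14 above 0. It was 0.33 without KO replicate 2 and 0.09, with 9 of 14 above 0, without WT replicate 1. Electron carriers and coenzyme Q synthesis had 0.42 with 17 of 17 above 0, or 0.28 without KO replicate 2 and 0.23 (14 of 17) without WT replicate 1. Carriers of the inner membrane with mitochondrial creatine kinase had 0.48 with 11 of 11, or 0.38 without KO replicate 2 and 0.28 without WT replicate 1. Subunits outside the name rule had 0.44 with 5 of 6, or 0.23 without KO replicate 2 and 0.36 without WT replicate 1. Complex I assembly factors had 0.18 with 8 of 11 above 0, or 0.17 without KO replicate 2 and 0.0088 with 6 of 11 without WT replicate 1. Assembly factors of complexes II to V had 0.11 with 12 of 20, or 0.083 without KO replicate 2 and 0.072 without WT replicate 1. Regulators of mitochondrial biogenesis had 0.11 with 10 of 17 above 0, or 0.091 without KO replicate 2 and 0.0023 with 9 of 17 without WT replicate 1. The 13 subunits encoded in mitochondrial DNA are not analysed here.

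Single genes of these lists, named by their small p, differed in how far they followed KO replicate 2. Coq5, a methyltransferase of coenzyme Q synthesis, was at 43.01, 58.98 and 49.06 RPKM in KO and 19.5, 30.44 and 37.1 RPKM in WT, with no overlap (0.81 ± 0.27, limma adjusted p = 0.486). Sdhaf1, which helps to load iron-sulphur clusters into complex II, was at 4.41, 8.88 and 4.85 RPKM in KO and 2.63, 3.09 and 3.03 RPKM in WT, again without overlap (0.80 ± 0.25, limma adjusted p = 0.468). Tmem126a, an assembly factor of complex I, averaged 47.2 ± 13.8 RPKM in KO and 30.5 ± 1.88 RPKM in WT (0.58 ± 0.23, limma adjusted p = 0.556). Nnt, the inner membrane transhydrogenase that makes NADPH, was at 30.59, 43.97 and 35.27 RPKM in KO and 10.92, 19.09 and 28.63 RPKM in WT. All KO libraries were above all WT libraries (0.95 ± 0.33, limma adjusted p = 0.519). Idh2 of the citric acid cycle averaged 312 ± 144 RPKM in KO and 162 ± 68.1 RPKM in WT (0.93 ± 0.41, limma adjusted p = 0.556), and Esrrb, a receptor of the oestrogen-related family, averaged 3.88 ± 1.44 RPKM in KO and 1.92 ± 0.98 RPKM in WT (0.76 ± 0.30, limma adjusted p = 0.556).

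The second gene by p of each list shows the same range. KO replicate 2 was the highest library for Ogdh of the citric acid cycle at 516.1 RPKM, for Ecsit of complex I assembly at 44.53 RPKM, for Coq4 of coenzyme Q synthesis at 6.23 RPKM, for Bcs1l, which inserts the Rieske protein, at 18.36 RPKM, and for Atpif1, the inhibitor of the ATP synthase, at 55.28 RPKM. Their log2 fold changes were 0.83 ± 0.41 for Ogdh, 0.79 ± 0.32 for Ecsit, 0.68 ± 0.23 for Coq4, 0.57 ± 0.27 for Bcs1l and 0.39 ± 0.19 for Atpif1 (limma adjusted p = 0.513 for Coq4 and 0.556 for the others). Ucp3, an uncoupling protein of the inner membrane, was at 6.62, 2.94 and 3.82 RPKM in KO and 0.64, 1.44 and 3.33 RPKM in WT, with KO replicate 2 the lowest KO library and an overlap with WT replicate 3 (1.02 ± 0.38, limma adjusted p = 0.556). Peo1, the helicase that copies mitochondrial DNA, was at 6.34, 6.44 and 6.51 RPKM in KO and 4.32, 4.79 and 5.84 RPKM in WT. Its KO libraries were nearly equal and all above the WT libraries (0.32 ± 0.18, limma adjusted p = 0.556).

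The distance of KO replicate 2 from the other KO libraries varied with the base composition of the transcripts. Against the mean of KO replicates 1 and 3, the median member was 0.78 higher on the log2 scale in KO replicate 2, and the median of all genes was 0.30 lower. In the 28 members of lowest GC content (42% to 50.2%) this difference had a median of 0.68, in the 27 between 50.2% and 54.6% GC it was 0.77, and in the 28 of highest GC content (up to 61.1%) it was 0.85. All genes in the same ranges had medians of -0.64, -0.23 and 0.26, below the members in each. Across genes, Spearman's rho between GC content and this difference was 0.297 for the 83 members and 0.589 for 12707 genes, which share the same libraries and are not independent replicates. With gene length rho was -0.255 for the members and -0.319 for all genes. Dependence on GC content was not particular to KO replicate 2. For KO replicate 1 minus KO replicate 3, rho with GC content was -0.531 for the members and -0.64 for all genes. The quartiles of that difference over all genes were -0.092 and 0.207, against -0.725 and 0.179 for KO replicate 2 minus the other KO libraries. KO replicate 2 was the lowest KO library for 5 members, Ndufs1, Sdha, Sdhd, Uqcrc2 and Cox6b2. Sdha and Uqcrc2, with 49.8% and 46.9% GC, differed there from the mean of the other KO libraries by -0.41 and -0.34 on the log2 scale, and their partners Sdhb and Uqcrc1, with 54.9% and 56.8% GC, were 0.78 and 1.33 higher. Other members did not follow this order. Cox6b2, a gene of low level with 55.7% GC, had the lowest difference, -0.83. Cox7b and Uqcrb, the members of lowest GC content at 42.0% and 42.2%, were 0.64 and 0.68 higher. The part of base composition in the result was not tested.

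**Figure D5:**
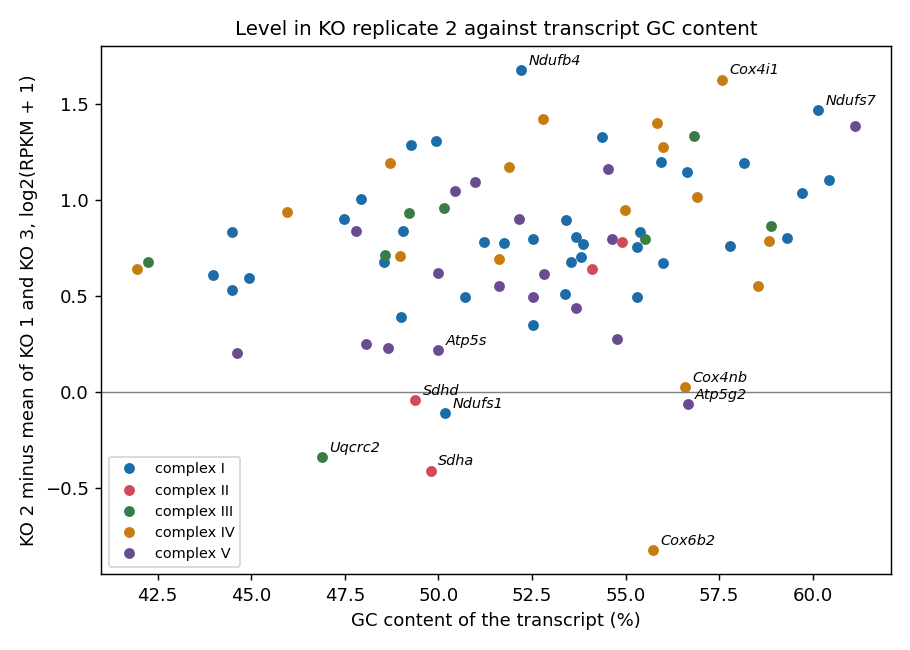
Level in KO replicate 2 minus the mean of KO replicates 1 and 3, on the log2(RPKM + 1) scale, against the GC content of the transcript in percent, for the 83 members, coloured by complex, with some genes named. The medians are 0.68, 0.77 and 0.85 from low to high GC content, and Cox6b2, Sdha and Uqcrc2 lie lowest.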

How the data were processed

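Members and gene lists were chosen with earlier results of these data known. The authors deposited 1 table of RPKM, rounded to 2 decimals, for 12969 genes with their lengths. The submitters' processing notes name STAR 2.3.0, HTSeq 0.6.0, edgeR 3.8.6, Picard 1.100 and SAMtools 0.1.18.0, with NCBIM37 (mm9) as the build. The sources used here do not give settings, strand or the handling of reads with several matches. Columns were matched to samples by name, and 5 rows with a displaced gene name were repaired. Depth came from the steps between low values multiplied by gene length, which were whole reads within 0.2 for 100% of the values used.

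The 12913 genes that averaged 1 RPKM or more entered a two-sided limma fit (version 3.58.1, R 4.3.3, moderated variances with an intensity trend) of KO minus WT on log2(RPKM + 1), with Benjamini-Hochberg adjustment over all of them and a threshold of 0.05. This scale understates the change of low genes. The labels do not say how the mice of a group are related, and p-values measure only the spread between these samples. Ratios of 8 paralogue pairs were compared by exact permutation. Named members were the catalytic subunits (1 of them is not reported here), the members with the smallest p per direction, the highest and lowest level per complex and the paralogue pairs, and 2 genes of smallest p per list. Others were named after their values were seen. GC content (98.4% of genes, 100% of members) and shared 50-base words came from GENCODE M21 transcripts, and promoters from RefSeq on GRCm38.p6, a build other than the authors', matched by symbol. The fit was tested on simulated data.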

Additional observations from a re-analysis of the deposited data

How the results depend on the processing

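The median log2 fold change of the 83 members and of each complex kept its direction under every alternative tried, and leaving out 1 library at a time it ranged from 0.30 to 0.77 for all members. The number of called members, 0, became 1 with quantile normalization (Cox6b2, limma adjusted p = 0.043). It became 34 of 83 with limma's library weights, where 2960 of all 12913 genes were called. These weights, from the gene-by-gene estimator, were 1, 0.103 and 6.36 in KO replicates 1 to 3. In WT replicates 1 to 3 they were 0.405, 4.4 and 0.849, so this fit rested mostly on KO replicate 3 and WT replicate 2. Leaving out 1 library at a time gave 0 called members each time. Over all genes, 65 were called, 34 with a mean of at least 5 RPKM, 104 with quantile normalization, 2960 with library weights and 21 to 96 leaving out 1 library at a time. Among the named members, reversed directions were found for genes near 0. Atp5g2 stood at -0.17 with library weights, and Ndufs1 at -0.074 with library weights and -0.036 with quantile normalization. With quantile normalization Cox8a stood at -0.073, Sdhd at -0.0082 and Uqcrc2 at -0.056. Leaving out 1 library at a time, Atp5g2 ranged from -0.011 to 0.25, Ndufs1 from -0.29 to 0.36, Sdhd from -0.019 to 0.37 and Uqcrc2 from -0.19 to 0.42, the lowest each time without WT replicate 1. Members outside the named ones also changed sign. Cox7c stood at -0.29 without KO replicate 2 and -0.12 without WT replicate 1, and Atp5s at -0.14 without WT replicate 1. With library weights 76 of the 83 members were above 0. The cause was not tested. Division by median-of-ratios factors moved the median of all genes to 0.02.

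Same-numbered KO and WT libraries did not deviate together (correlations of 0.129, -0.0978 and -0.102 for numbers 1 to 3, and 2 of 6 libraries correlated best with their own number). They were not treated as pairs in the main fit, but correlations from so few libraries cannot exclude a shared batch. With the replicate block 250 genes and 1 member, Cox6b2 (limma adjusted p = 0.00325), were called.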

Other observations

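AA467197, also known as Nmes1, encodes a small mitochondrial protein related to Ndufa4 that inflammatory cells make. It was at 7.47, 5.97 and 5.38 RPKM in KO replicates 1 to 3, against 9.42, 4.72 and 2.8 RPKM in WT replicates 1 to 3. It was chosen after its values were seen. The groups overlapped, and WT replicate 1, the library lowest for most respiratory chain genes, had the highest value (log2 fold change 0.24 ± 0.35 SE, limma adjusted p = 0.737).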
